A study of Mus musculus with 6 samples.

Results

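The receptors Notch1 and Notch4, the ligands Dll1, Dll4, Jag1 and Jag2, and the target genes Hes1, Hey1, Hey2 and Heyl were followed in tumor endothelial cells (ECs). These 10 genes, listed by symbol, were all among the 24346 gene symbols measured. The mice carried MC38 tumors, grown from a mouse colon cancer cell line, and 3 samples from WT mice were compared with 3 samples from Apelin-KO mice, all C57BL/6. The sample names of both groups also carry the word saline, and the labels give neither age nor sex. In the Apelin-KO mice the Apln gene, which codes for the peptide ligand Apelin, is knocked out in the whole animal. Other host cells of the tumor bed thus carried the knockout too, while the implanted cancer cells did not come from these mice. Tumors were digested with enzyme, and cells positive for the endothelial surface protein CD31 and negative for the blood cell protein CD45 were sorted before RNA was extracted. Nothing in the labels says how many mice or tumors went into each sample, so the p-values below measure the spread between these samples.

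Notch signaling runs between cells that touch. A Delta-like or Jagged ligand on the sending cell pulls on a Notch receptor on its neighbor, proteases then cut the receptor, and the freed intracellular domain enters the nucleus, where it joins the DNA-binding protein RBPJ and switches on repressors of the Hes and Hey families. In sprouting vessels, Dll4 on the leading tip cell activates Notch in the stalk cells behind it and keeps them from becoming tips, whereas Jag1 is known to work against Dll4 in this setting. Notch4 is a receptor made largely by ECs, and Notch activity is also part of arterial identity.

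The 10 genes lie on chromosomes 2, 3, 4, 10, 12, 16 and 17 of GRCm38 in the GENCODE annotation. Dll4 spans chr2:119325784-119335962 on the plus strand with 11 exons, Notch1 chr2:26457903-26516663 on the minus strand with 34 exons and Jag1 chr2:137081456-137116644 on the minus strand with 26 exons. Notch4 spans chr17:34564268-34588503 on the plus strand with 30 exons, and Dll1 chr17:15367354-15376872 on the minus strand with 11 exons. Jag2 spans chr12:112907819-112929776 on the minus strand with 26 exons. Hes1, with 4 exons, spans chr16:30064384-30067796 on the plus strand. Hey1 at chr3:8663359-8667256 and Hey2 at chr10:30832359-30842801, both on the minus strand, and Heyl at chr4:123233556-123249875 on the plus strand have 5 exons each. Exons are those of the longest coding transcript.

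RefSeq promoter windows (GRCm38.p6, 250 bases before to 50 bases after a gene's start) were matched by symbol for 7 of the 10 genes, and Hes1, Hey1 and Heyl were not among them. The stretch from 250 to 30 bases before the start is shown for the receptors, for the most abundant ligand and for the target gene with a match to the RBPJ core, 5′ to 3′ on the strand of the gene. Capitals mark a match to a motif that was searched on both strands. The motifs were TGGGAA, the core bound by RBPJ, and CACNAG, the N-box bound by Hes proteins. CACGTG, an E-box, and CCGGAA, a site of ETS factors, were searched as well. Other forms of the E-box and of the ETS site were not searched. The positions are chr17:34564045-34564265 on the plus strand for Notch4, chr2:26503852-26504072 on the minus strand for Notch1, chr2:119325534-119325754 on the plus strand for Dll4 and chr10:30842813-30843033 on the minus strand for Hey2.
Notch4: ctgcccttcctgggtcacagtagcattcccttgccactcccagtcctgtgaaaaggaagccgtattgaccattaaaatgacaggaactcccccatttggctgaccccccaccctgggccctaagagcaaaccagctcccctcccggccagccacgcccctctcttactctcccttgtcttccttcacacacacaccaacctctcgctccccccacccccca
Notch1: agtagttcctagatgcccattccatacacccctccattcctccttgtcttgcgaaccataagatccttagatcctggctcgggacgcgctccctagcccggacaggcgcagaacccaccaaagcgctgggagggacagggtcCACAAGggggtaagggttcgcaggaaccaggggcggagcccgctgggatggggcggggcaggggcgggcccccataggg
Dll4: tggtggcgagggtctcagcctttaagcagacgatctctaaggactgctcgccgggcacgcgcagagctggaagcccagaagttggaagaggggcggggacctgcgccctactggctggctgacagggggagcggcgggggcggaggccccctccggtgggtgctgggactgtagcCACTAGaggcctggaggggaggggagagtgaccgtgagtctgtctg
Hey2: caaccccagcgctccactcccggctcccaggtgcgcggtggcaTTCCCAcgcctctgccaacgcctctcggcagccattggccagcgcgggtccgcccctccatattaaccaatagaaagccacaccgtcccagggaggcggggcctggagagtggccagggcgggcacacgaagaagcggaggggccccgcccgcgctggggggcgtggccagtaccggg

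In the Hey2 window the RBPJ core was matched at 207 bases before the start, on the strand opposite to the gene (TTCCCA), and again at 3 bases before the start. RBPJ core matches were held by 1 of the 7 genes, where 28.3% of all 27025 genes with a window held one. The N-box was matched in 3 of the 7 genes, at 75 bases before the start in Dll4 (CACTAG), at 14 bases after it in Dll1, and in Notch1 at 108 bases before the start (CACAAG) with 2 further matches that overlap each other within 3 bases of the start. An N-box was held by 46.1% of all genes with a window. CACGTG (8.1% of all genes) and CCGGAA (16.7%) were not matched in these 7 genes, and the Notch4 stretch holds none of the 4 motifs searched. The Notch1 stretch lies inside the span GENCODE gives for Notch1, which starts further upstream. A match is a run of letters and not evidence of binding, and no readout of binding or chromatin was analysed here.

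Expression was measured by RNA-sequencing as FPKM (reads scaled by the length of the transcript and by the mapped total of the library), with 14089 to 14621 genes above 0 in each sample. Depth, estimated from the step that a single read makes in low FPKM, was between 9000000 and 10240000 reads. The level of Apln was 457 ± 40.7 FPKM in WT and 17.3 ± 7.20 FPKM in Apelin-KO samples (SD, n = 3 each), and Apln was the single gene called among 10964 tested at an adjusted p under 0.05 (0.00912% of genes; limma with Benjamini-Hochberg adjustment). The source of the Apln signal left in Apelin-KO samples was not tested. The sort was checked against marker genes. Of 15 endothelial markers, all were above 9 FPKM in every sample. Of 12 epithelial and tumor cell markers, only Krt20 had a mean of at least 1 FPKM. Krt20 was at 8.82 FPKM in WT and 13.7 FPKM in Apelin-KO ECs on average, with overlapping groups. Vil1 had a mean of 0.882 FPKM in WT ECs and 0.677 FPKM in Apelin-KO ECs. Hematopoietic, fibroblast and mural markers were present at levels that differed between samples, and they are given below beside the genes they bear on.

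The same receptor, ligand and target gene led their families in all 6 samples (plot of shares by sample). FPKM are per transcript length, so levels of different genes can be set side by side. Notch4 made up 73.2 to 78.9% of the summed FPKM of the 4 Notch receptors, and Notch1 19.6 to 23.4%. Notch2 took 1.45 to 3.27% in WT and 0.694 to 1.18% in Apelin-KO samples, without overlap, and Notch3, a receptor of mural cells, took 0.353 to 0.591%. Among the 5 canonical ligands, Dll4 made up 69.7 to 78.1%, followed by Jag1 with 9.71 to 14.5%, Jag2 with 8.02 to 12.5% and Dll1 with 3.10 to 4.81%, while Dll3 was listed at 0 in every sample. Among the 4 target genes, Hes1 made up 68.3 to 79.2% and Hey1 20.4 to 30.7%, and Hey2 and Heyl together with less than 1% in each sample were close to absent. Notch4, Dll4 and Hes1 thus held most of the FPKM of their families in ECs of both genotypes.

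**Figure D1:**
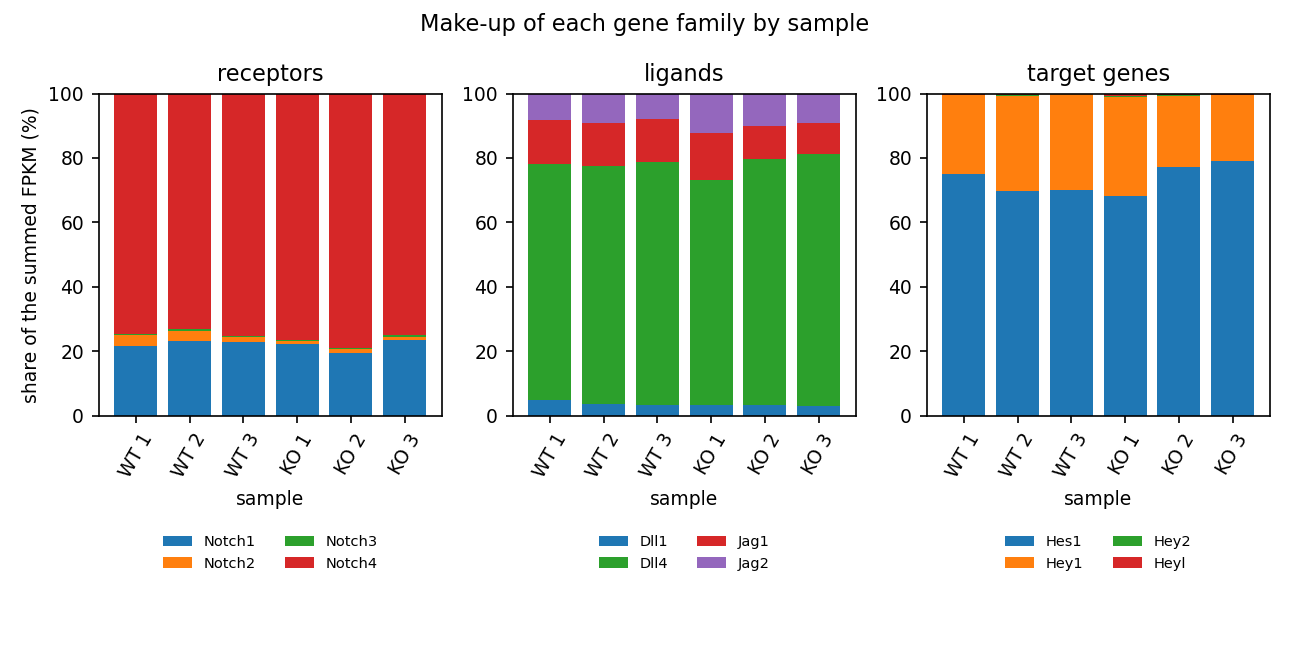
Share of each gene in the summed FPKM of its family (y axis, %) in the 3 WT and 3 Apelin-KO samples (x axis), for receptors, ligands and target genes. Notch4, Dll4 and Hes1 make up most of their family in every bar; Hey2 and Heyl (at most 0.202% and 0.743%) are too thin to see, and Dll3 is listed at 0.

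In level, the 10 genes spanned from under 1 to over 200 FPKM. In WT ECs the order was Dll4, Hes1, Notch4, Hey1, Notch1, Jag1, Jag2, Dll1, Heyl and Hey2. The ranges over samples overlapped for the neighbors Hes1 and Notch4 and for Notch1 and Jag1, so that these pairs were not separated beyond their spread, and the other neighbors did not overlap. In Apelin-KO ECs the order by mean was the same. There the ranges of Dll4 and Hes1, of Hes1 and Notch4, and of Jag1 and Jag2 overlapped. Among the 10964 genes tested, Dll4 stood at the 96.1 percentile of mean FPKM, Hes1 at the 94.3 percentile, Notch4 at the 93.5 percentile and Dll1 at the 41.8 percentile.

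**Figure D2:**
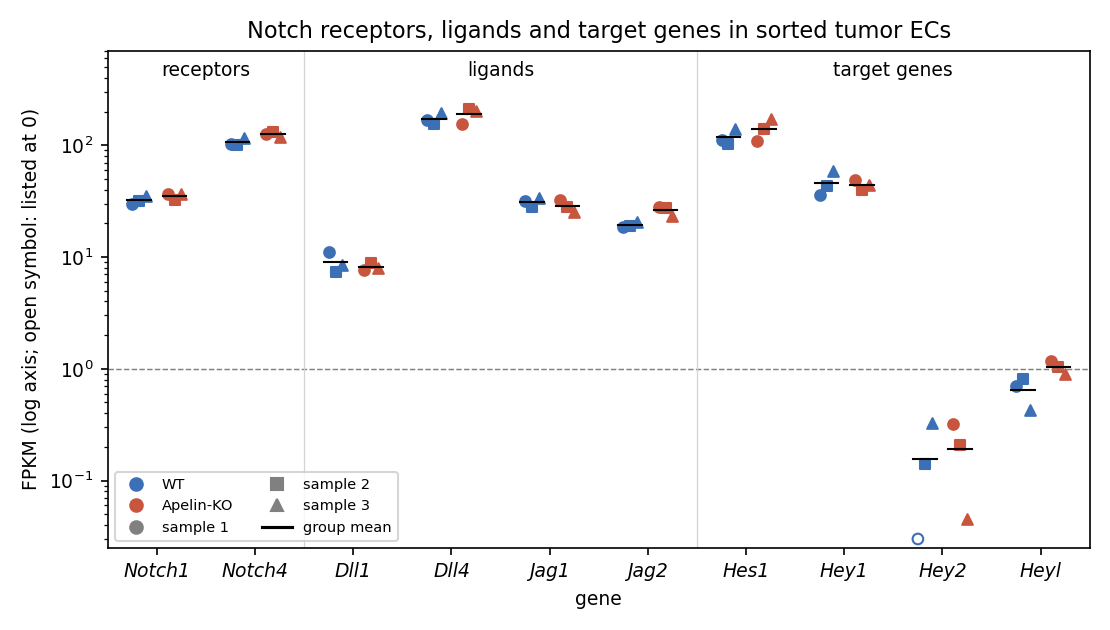
FPKM (log axis) of the 10 genes (x axis, grouped as receptors, ligands and target genes) in WT (blue) and Apelin-KO (red) samples, with symbols for samples 1 to 3 and black lines for group means; the open symbol is a value listed at 0 and the dashed line is 1 FPKM. For Notch4, Jag2 and Heyl the 3 Apelin-KO samples lie above the 3 WT samples, and the other 7 genes overlap.

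The question of the comparison was which genes of tumor ECs differ in the absence of Apelin. None of the 8 Notch genes that had a mean of at least 1 FPKM, and so entered the test, passed an adjusted p of 0.05. At an unadjusted p under 0.05, Jag2 alone passed, higher in Apelin-KO ECs, where 9.42% of all 10964 genes passed in either direction. The Apelin-KO samples lay above all WT samples for Notch4 and Jag2, 2 of the 8, and no tested member had the WT samples above. Over all genes tested, 7.77% had the Apelin-KO samples above and 6.61% had the WT samples above. By sign alone, 5 of the 8 were higher in Apelin-KO ECs and 3 (Dll1, Jag1 and Hey1) were higher in WT ECs, and the median difference was 0.13 on the log2(FPKM + 1) scale, beside 0.01 over all genes tested. That median was 0.20 without WT 3 and 0.08 without Apelin-KO 3, and -0.10 relative to endothelial markers (taken up below). Hey2 and Heyl had a mean under 1 FPKM over all samples and are described from a fit without that minimum. With 3 samples against 3, an exact permutation p cannot fall below 0.1.

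Notch4, the endothelial receptor, was at 101.6, 100.7 and 115.1 FPKM in WT samples 1 to 3, in that order, and at 125.8, 130.1 and 118.2 FPKM in Apelin-KO samples 1 to 3. The lowest Apelin-KO sample was 118.2 and the highest WT sample 115.1 FPKM, so that the groups lay close together without overlap. The group means were 106 ± 8.07 FPKM and 125 ± 6.00 FPKM (SD, n = 3 each), which places Apelin-KO ECs at 118% of WT ECs. The difference in log2(FPKM + 1) was 0.24 (95% interval -0.01 to 0.48), with an adjusted p of 0.527 from limma with Benjamini-Hochberg adjustment and an exact permutation p of 0.1. Notch1, the broadly used receptor whose loss in ECs causes excess sprouting, was at 29.6, 31.9 and 35.0 FPKM in WT and 36.9, 32.4 and 36.9 FPKM in Apelin-KO samples. The groups overlapped in the range of WT 3 and Apelin-KO 2. Its difference was 0.14 (95% interval -0.13 to 0.40; adjusted p = 0.723, limma), with an exact permutation p of 0.2. An interval of this width still holds a Notch1 level in Apelin-KO ECs that is somewhat below that of WT ECs as well as above it.

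Dll4, the tip cell ligand, was at 169.3, 155.0 and 193.5 FPKM in WT and at 156.0, 209.1 and 202.2 FPKM in Apelin-KO samples. Apelin-KO 1 lay among the lowest values and the other Apelin-KO samples were the highest of the 6, so the groups overlapped over most of their range. The means were 173 ± 19.5 FPKM and 189 ± 28.9 FPKM (SD, n = 3 each), with a difference of 0.12 on the log2 scale (95% interval -0.23 to 0.48; adjusted p = 0.817, limma). With single samples left out it ranged from 0.05 (without Apelin-KO 2) to 0.26 (without Apelin-KO 1). Dll1, a second Delta-like ligand, was at 11.1, 7.33 and 8.42 FPKM in WT and 7.61, 8.78 and 8.03 FPKM in Apelin-KO samples. All Apelin-KO values lay inside the WT range, and the difference was -0.11 (95% interval -0.47 to 0.25; adjusted p = 0.852, limma). Its sign rested on WT 1, without which it was 0.04.

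Jag2, a Jagged ligand, had the largest difference relative to its error among the 10 genes. It was at 18.6, 19.1 and 20.6 FPKM in WT and at 27.9, 27.3 and 23.5 FPKM in Apelin-KO samples. The WT samples were within 2 FPKM of each other, and Apelin-KO 3 was nearest to them. The means were 19.4 ± 1.03 FPKM and 26.2 ± 2.39 FPKM (SD, n = 3 each), so that Apelin-KO ECs were at 135% of WT ECs. The difference was 0.41 on the log2(FPKM + 1) scale (95% interval 0.16 to 0.67), the unadjusted p from limma was 0.00663 and the adjusted p over all genes tested was 0.501, and the exact permutation p was 0.1. The values correspond to an estimated 843 to 925 reads in WT and 1090 to 1370 reads in Apelin-KO samples. Jag2 differed by more than the spread between these samples when taken alone, and not after adjustment for the number of genes. With any single sample left out, the difference lay between 0.37 and 0.49, and relative to endothelial markers it was 0.18 with an unadjusted p of 0.237 from limma.

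Jag1, the other Jagged ligand and the one known to oppose Dll4 in sprouting, was at 31.8, 27.7 and 34.0 FPKM in WT and 32.3, 28.0 and 25.1 FPKM in Apelin-KO samples. The groups overlapped, with the highest value in WT 3 and the lowest in Apelin-KO 3. The difference was -0.13 (95% interval -0.44 to 0.18, adjusted p = 0.787, limma). It ranged from -0.22 (without Apelin-KO 1) to -0.04 (without Apelin-KO 3) with single samples left out. The ratio of Jag1 to Jag2 FPKM, looked at after these values were seen, was 1.71, 1.45 and 1.66 in WT and 1.16, 1.03 and 1.07 in Apelin-KO samples. Every WT ratio was above every Apelin-KO ratio, with means of 1.61 ± 0.136 and 1.09 ± 0.0668 (SD, n = 3 each) and an exact permutation p of 0.1, or 0.48 after Benjamini-Hochberg adjustment over 6 ratios. The ratio uses the Jag2 values again and is no separate evidence. The ratio of Dll4 to Jag1 was 5.31, 5.59 and 5.68 in WT and 4.82, 7.46 and 8.04 in Apelin-KO samples, with Apelin-KO 1 below and the others above the WT samples (exact permutation p = 0.4). The remaining 4 ratios, Dll4 to Dll1, Dll4 to Jag2, Notch4 to Notch1 and Hes1 to Hey1, had exact permutation p-values of 0.2 to 0.5.

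Hes1, a repressor switched on by the Notch intracellular domain in many tissues, was at 110.7, 101.8 and 139.5 FPKM in WT and 108.3, 139.9 and 171.8 FPKM in Apelin-KO samples. Its values were the most spread of the genes tested here, and the groups overlapped, with Apelin-KO 1 inside the WT range. The means were 117 ± 19.8 FPKM and 140.0 ± 31.8 FPKM (SD, n = 3 each). The difference was 0.24 (95% interval -0.22 to 0.71, adjusted p = 0.721, limma). It ranged from 0.08 (without Apelin-KO 3) to 0.41 (without Apelin-KO 1) with single samples left out. Hey1, the main Hey gene of ECs, was at 36.2, 43.3 and 59.2 FPKM in WT and 48.7, 39.8 and 44.2 FPKM in Apelin-KO samples. All Apelin-KO values lay within the WT range, and the difference was -0.04 (95% interval -0.48 to 0.40; adjusted p = 0.967, limma). Without WT 3 its difference was 0.15 and without Apelin-KO 2 it was 0.03, so that no direction can be given for Hey1.

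Hey2, an arterial Hey gene and the gene with the RBPJ core matches shown above, was listed at 0, 0.142 and 0.327 FPKM in WT and at 0.320, 0.208 and 0.045 FPKM in Apelin-KO samples. These values correspond to an estimated 0 to 7.03 reads per sample, and the groups overlapped fully, so a difference between genotypes was not detectable at this depth. The difference of Hey2 was 0.05 with a pseudocount of 1 and 0.98 with a pseudocount of 0.01, so its size has no meaning here. Heyl, a Hey gene that is also active in the mural cells around vessels, was at 0.702, 0.817 and 0.426 FPKM in WT and 1.18, 1.03 and 0.899 FPKM in Apelin-KO samples. The Apelin-KO samples lay above the WT samples, at an estimated 36.8 to 47.7 reads against 16.9 to 31.9 reads. In the fit without a minimum level, the difference of Heyl was 0.31 (95% interval 0.03 to 0.59; unadjusted p = 0.0338 and adjusted p = 0.523, limma). At so low a level the size depends on the pseudocount, with 0.71 for a pseudocount of 0.01, and relative to the endothelial markers taken up below it was 0.08 (unadjusted p = 0.680, limma). The mean of the mural markers was higher in Apelin-KO samples, although not every marker had that direction. The mean log2(FPKM + 1) of 13 mural markers was 2.003 to 2.182 in WT and 2.34 to 2.43 in Apelin-KO samples (exact permutation p = 0.1), all 13 were above 0 in at least 1 sample, and Pdgfrb, the receptor that defines these cells, was 5.96 FPKM in WT and 7.42 FPKM in Apelin-KO ECs on average. Of the 9 mural markers tested, 7 were higher in Apelin-KO ECs by sign and 2 (Cspg4 at -0.35 and Tagln at -0.30) were higher in WT ECs, and Higd1b (difference 1.39) and Ndufa4l2 (0.66) had an unadjusted p under 0.05, both higher in Apelin-KO ECs. Vtn and Des, with a mean under 1 FPKM, also lay higher in Apelin-KO samples without overlap. Their differences were 0.64 and 0.40 in the fit without a minimum. The part of mural cells in the Heyl values was not tested.

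**Figure D3:**
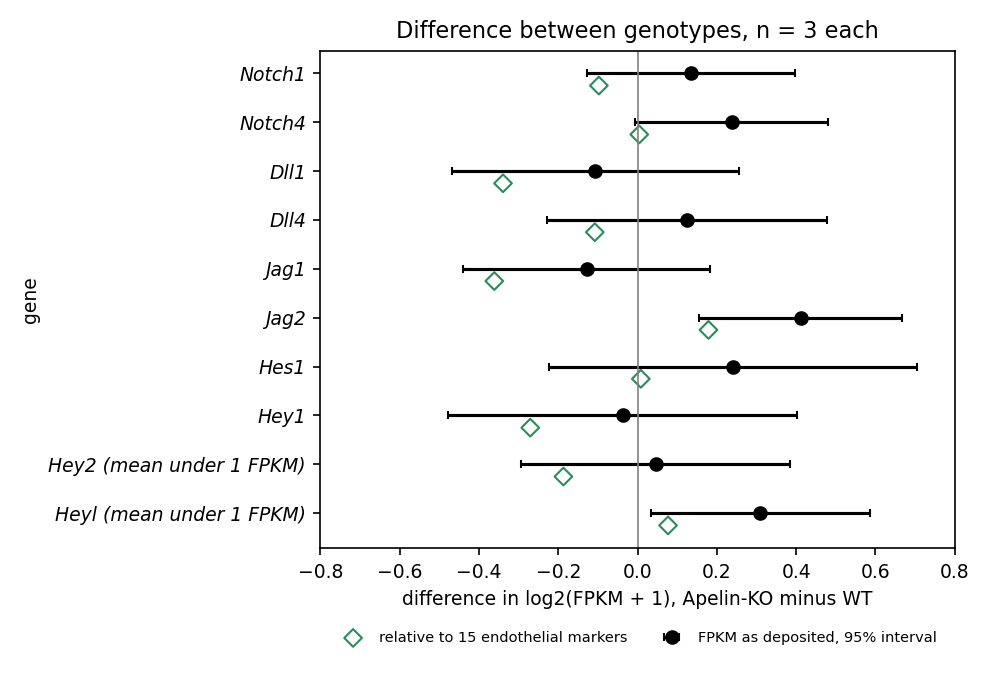
Difference in log2(FPKM + 1), Apelin-KO minus WT (x axis), for the 10 genes (y axis) with 95% intervals from limma (black, 3 samples per genotype), and the same difference relative to the mean of 15 endothelial markers (green). The Jag2 interval (0.16 to 0.67) and that of the low-level Heyl lie above 0, the others hold 0, and every green symbol lies to the left of its black one.

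Endothelial markers themselves differed between the samples in the direction of Notch4 and Jag2. The mean log2(FPKM + 1) of the 15 markers was 7.62 to 7.92 in WT and 7.94 to 8.04 in Apelin-KO samples (exact permutation p = 0.1). All 15 were higher in Apelin-KO ECs by sign, 5 of them at an unadjusted p under 0.05 (Pecam1, Tie1, Vwf, Cdh5 and Ptprb), with a median difference of 0.24, beside 0.24 for Notch4. Set relative to these markers, the difference of Notch4 was 0.00 on the log2 scale, that of Hes1 0.01 and that of Jag2 0.18. Notch1 (-0.10) and Dll4 (-0.11) then had the opposite sign, and Jag1 was -0.36 (unadjusted p = 0.0332 and adjusted p = 0.254, limma). This scaling moves the median of all genes to -0.22, and 5 of the 8 genes tested (Notch1, Notch4, Dll4, Jag2 and Hes1) lay above that median and Dll1, Jag1 and Hey1 below it. In bulk RNA, fewer cells of a type and less RNA per cell cannot be told apart.

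Hematopoietic and fibroblast markers had lower means in Apelin-KO ECs, with group ranges that overlapped (exact permutation p = 0.3 for each list). The mean log2(FPKM + 1) of 20 hematopoietic markers was 4.502, 5.004 and 3.473 in WT and 2.54, 3.73 and 3.48 in Apelin-KO samples, with the highest values in WT 1 and WT 2 and the lowest in Apelin-KO 1, although CD45-positive cells had been sorted out. Of the 19 tested, all were higher in WT ECs by sign and 9 had an unadjusted p under 0.05 (Cd74, Tyrobp, Cd52, C1qa, Adgre1, Cd53, Itgam, Spi1 and Ptprc). Ptprc, which codes for CD45, was at 3.13, 4.84 and 1.27 FPKM in WT and 0.043, 1.70 and 0.740 FPKM in Apelin-KO samples, and Cd3e of T cells was at most 0.239 FPKM. The mean of 12 fibroblast markers was 2.67 to 3.44 in WT and 2.45 to 2.87 in Apelin-KO samples, and all 9 tested were higher in WT ECs by sign, Col1a1, Col3a1, Dcn and Pdgfra at an unadjusted p under 0.05. Fap, a fibroblast marker under 1 FPKM, went the other way, with 0.078, 0.133 and 0.043 FPKM in WT and 0.468, 0.427 and 0.337 FPKM in Apelin-KO samples (difference 0.38 in the fit without a minimum). The part of these cells in the Notch values was not tested.

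**Figure D4:**
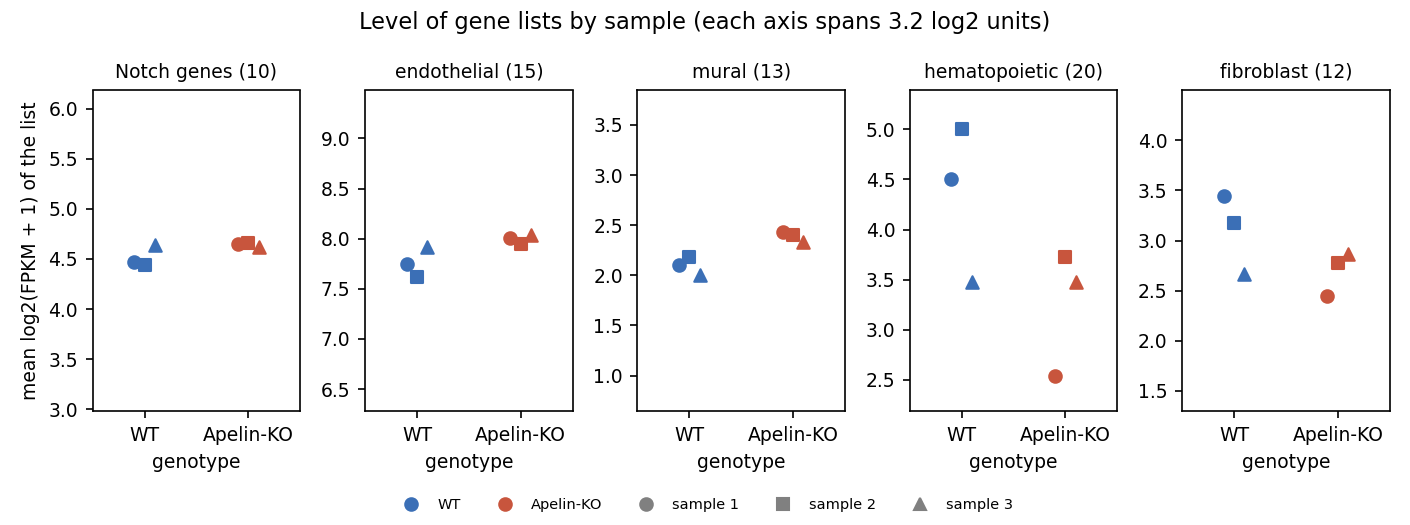
Mean log2(FPKM + 1) of each gene list (y axis, the same span in each panel) in WT (blue) and Apelin-KO (red) samples (x axis), with symbols for samples 1 to 3 and the number of genes in parentheses. Endothelial and mural markers are higher in the 3 Apelin-KO samples (7.94 to 8.04 and 2.34 to 2.43), while hematopoietic markers spread from 2.54 to 5.004 and are highest in WT 1 and WT 2.

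The other receptors and ligands of the pathway were low. Notch2, a receptor used by many cell types including myeloid cells, was at 4.45, 4.18 and 2.22 FPKM in WT and 1.14, 1.65 and 1.86 FPKM in Apelin-KO samples. It was the single further receptor or ligand with a mean of at least 1 FPKM, and every WT sample was above every Apelin-KO sample. Its difference was -0.83 (95% interval -1.35 to -0.30; unadjusted p = 0.00741 and adjusted p = 0.501, limma), opposite in sign to Notch1 and Notch4. Its level was highest in WT 1 and WT 2 and lowest in Apelin-KO 1. The means of the hematopoietic and of the fibroblast markers were highest and lowest in these same samples. In WT 3, unlike Notch2, both means were below those of Apelin-KO 2 and Apelin-KO 3. The part of either cell type in the Notch2 values was not tested. Notch3 was at 0.481 to 0.813 FPKM in WT and 0.734 to 0.892 FPKM in Apelin-KO samples, under the minimum for testing. Dlk1, a non-canonical ligand, was at 0.025, 0.172 and 0.085 FPKM in WT and 0.385, 0.258 and 0.585 FPKM in Apelin-KO samples. Its groups did not overlap, and in the fit without a minimum level the difference was 0.36 (unadjusted p = 0.0156, limma). Dlk2 did not exceed 0.640 FPKM in any sample.

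Most genes of the machinery that prepares, cuts and reads the receptor had a mean of at least 1 FPKM. Of 18 genes for ligand and receptor processing, 17 were tested, 9 were higher in Apelin-KO and 8 in WT ECs by sign, and the median difference was 0.01. Neurl1b, a ubiquitin ligase that acts on ligands, was the single gene of this list with an unadjusted p under 0.05, at 1.40 ± 0.105 FPKM in WT and 2.09 ± 0.523 FPKM in Apelin-KO ECs (SD, n = 3 each), and its groups overlapped. The most abundant was Adam10, the protease that makes the first ligand-induced cut, with 183 ± 19.4 FPKM and 199 ± 18.4 FPKM. Of the 14 genes of the nuclear complex and its corepressors, 13 were tested and none had an unadjusted p under 0.05. The other, the corepressor gene Cir1, was under 1 FPKM, with 0.451, 0.381 and 0.312 FPKM in WT and 0.061, 0.111 and 0.182 FPKM in Apelin-KO samples (difference -0.31 and unadjusted p = 0.00682 in the fit without a minimum, limma). Ctbp1 and Snw1 were the most abundant of them, with differences of 0.11 and -0.04. Rbpj itself was at 3.42 ± 0.443 FPKM in WT and 2.998 ± 0.847 FPKM in Apelin-KO ECs, a difference of -0.16 that was smaller than the spread (95% interval -0.59 to 0.26).

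A further list, labeled brakes on the receptor, holds 11 genes, among them Deltex genes that are not brakes in every setting. Of the 11, 8 were higher in Apelin-KO and 3 in WT ECs by sign, with a median difference of 0.10. Nrarp, which is both a Notch target and a brake on the intracellular domain, was at 91.3, 108.1 and 115.6 FPKM in WT and 125.9, 123.5 and 131.0 FPKM in Apelin-KO samples. The groups did not overlap, and the difference was 0.28 (95% interval 0.00 to 0.55; unadjusted p = 0.0492 and adjusted p = 0.525, limma). Dtx4, a ubiquitin ligase of the Deltex family, was at 6.95, 7.56 and 3.12 FPKM in WT and 1.85, 3.19 and 3.496 FPKM in Apelin-KO samples. Its difference was -0.80 (unadjusted p = 0.0366, limma) with overlapping groups, and it too was highest in WT 1 and WT 2 and lowest in Apelin-KO 1. Of 12 further target genes, 8 were tested, 5 were higher in Apelin-KO and 3 in WT ECs by sign, and Nrarp alone had an unadjusted p under 0.05. Of the 48 pathway genes tested outside the 10, 4 passed that p (Notch2, Neurl1b, Dtx4 and Nrarp), or 8.33% beside the 9.42% of all genes. None passed the adjusted p. The count of 4 fell to 1 when WT 1, WT 2 or Apelin-KO 1 was left out.

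Vessel type genes, several of which respond to Notch, were read beside the pathway. Over all 10964 genes tested, 5755 were higher in Apelin-KO ECs by sign and 9.42% had an unadjusted p under 0.05. Of 12 arterial genes, 10 were higher in Apelin-KO ECs by sign with a median difference of 0.19, and Sox17, an arterial transcription factor, passed an unadjusted p of 0.05 with 18.4 ± 1.75 FPKM in WT and 25.9 ± 4.36 FPKM in Apelin-KO ECs (SD, n = 3 each; difference 0.46). Of 7 venous genes, 6 were higher in Apelin-KO ECs by sign with a median of 0.10, and Vwf, which is also an endothelial marker above, passed with a difference of 0.34. Of 12 tip cell genes, 10 were higher in Apelin-KO ECs by sign with a median of 0.08 and none passed. The most abundant tip cell genes, Igfbp3 and Esm1, had differences of 0.08 and 0.09. The median of all 3 lists was below the 0.24 of the endothelial markers. These lists are not separate sets. Some venous and tip cell genes are themselves endothelial markers, and the arterial and tip cell lists share genes.

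**Figure D5:**
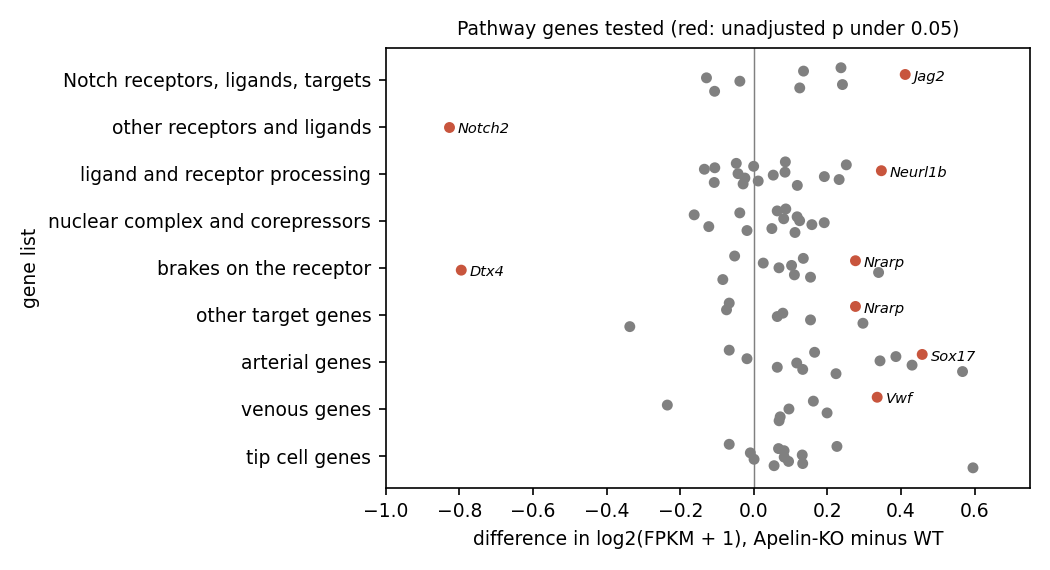
Difference in log2(FPKM + 1), Apelin-KO minus WT (x axis), of each gene tested, by list (y axis); red marks an unadjusted p under 0.05 from limma. Most points lie within 0.4 of 0, and the named red points are Jag2, Notch2, Neurl1b, Dtx4, Nrarp (in both lists that hold it), Sox17 and Vwf.

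How the 8 genes tested varied over the 6 samples is given as Pearson correlations of log2(FPKM + 1) without a test, since the samples share the genotype difference and the cell make-up. Of the 28 pairs, 10 were negative, and the median was 0.192. Notch4 and Jag2 had the highest correlation, 0.949, followed by Dll4 and Hes1 with 0.904. For Dll4 and Hes1, WT 2 and Apelin-KO 1 were the lowest samples in both. The lowest correlation was that of Notch1 and Dll1, -0.661. Over all genes tested, those most like Notch4 were Dnaja4 (0.993), Prr5 (0.991) and Egln1 (0.991). Those most like Dll4 were Ccbl1 (0.993), Ctsb (0.991) and Etv6 (0.989), and those most like Hes1 were Strn3 (0.999), Ptbp3 (0.995) and Lnpep (0.994). Of 10963 genes compared, 26 were above 0.95 with Notch4, 38 with Dll4 and 54 with Hes1.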

How the data were processed

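RNA of sorted tumor ECs was analysed in 3 WT and 3 Apelin-KO samples, grouped by the genotype in the labels. Per the labels and the study's methods, the authors made TruSeq stranded mRNA libraries, sequenced single-end reads and mapped them to mm10. The submitters' processing notes name TopHat2 2.1.1, Bowtie2 2.2.4, SAMtools 1.0 and Cufflinks 2.2.1, and the study's methods give other versions of the aligner. The deposited values are FPKM per gene symbol; the authors' annotation and strand setting are not given in the sources used here, so reads of overlapping or antisense genes may be mixed.

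FPKM are not counts, and no count test was run. Values were taken as log2(FPKM + 1), which understates differences of low genes, and the 10964 genes whose mean reached 1 FPKM were compared (Apelin-KO minus WT, no block) by limma 3.58.1 (R 4.3.3; moderated, two-sided), with Benjamini-Hochberg adjustment over all of them. Exact permutation tests were two-sided. Depth was estimated from 3742 single-transcript genes with 200-base fragments assumed; 63.2 to 67.0% of low values lay within 0.1 of a whole read, where chance gives 20%. Reads per gene are therefore estimates. The fit was tested on simulated data. Positions come from GENCODE and promoters from RefSeq, both GRCm38. Python 3.11.15 was used for tables and plots.

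The members and gene lists were chosen with earlier results of these data known, so they support nothing beyond their own values. Named were all 10 members and the 3 genes most correlated with Notch4, Dll4 and Hes1. Of every other list, each gene tested at an unadjusted p under 0.05 was named, or else the 2 most abundant. Genes tested had a mean of 1 FPKM or more. Rbpj, Adam10, Pdgfrb, Ptprc, Cd3e, Notch3, Dlk1, Dlk2, Dll3, Cir1, Fap, Cspg4, Tagln, Vtn and Des and the 6 ratios were picked outside that rule. Alternatives changed the pseudocount (0.1 or 0.01), the filter, the scaling, the variance, the replicate block and the samples included.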

Additional observations from a re-analysis of the deposited data

How the results depend on the processing

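Of the 8 genes tested, 0 passed an adjusted p of 0.05 in limma under all 16 alternatives. Jag2, Notch4, Hes1 and Jag1 kept their sign under every pseudocount, scaling and single sample left out, with ranges of 0.18 to 0.49, 0.00 to 0.30, 0.01 to 0.41 and -0.36 to -0.04, and so did Heyl where it could be run, with a range of 0.08 to 0.71. The filter, variance, trend and block alternatives leave a difference as it is and alter only its error. Its unadjusted p was over 0.05 with a pseudocount of 0.01 (0.0507), relative to the endothelial markers (0.680), under unmoderated variances (0.0599) and without WT 1, WT 3, Apelin-KO 1 or Apelin-KO 2 (0.0638 to 0.102). Relative to the endothelial markers, a scaling that moves the median of all genes to -0.22, the median of the tested genes was -0.10, Notch1 was -0.10, Dll4 -0.11 and Hey2 -0.19, all opposite to the sign above but above that median, and Apelin-KO lay above WT without overlap for 0 genes; by construction the shift applies to every gene. Under quantile normalization 1 gene did. With 1 sample left out, the median was 0.0762 to 0.203 and this count was 2 to 4, with 4 without Apelin-KO 1. At an unadjusted p under 0.05, 2 genes passed (Jag2 and Notch4) without a filter, under a minimum mean of 5 FPKM, under unmoderated variances and with an intensity trend, and 1 to 2 passed with 1 sample left out (2 without WT 3 or Apelin-KO 3). The signs of the smallest differences turned with single samples: Dll1 ranged from -0.226 to 0.043 (0.043 without WT 1), Hey2 from -0.0543 to 0.1498 (-0.0543 without WT 1 and -0.0318 without Apelin-KO 1), and Hey1 from -0.195 to 0.151 (0.151 without WT 3 and 0.034 without Apelin-KO 2). The count of 4 other pathway genes was 1 under a minimum mean of 5 FPKM, 1 under unmoderated variances and 1 to 3 with 1 sample left out. The cause was not tested, except that the higher minimum tests fewer genes.

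Samples with the same replicate number did not deviate together (correlations of -0.14, 0.21 and -0.02), so the numbers only name samples; with the replicate block, 1 of the 8 genes and 2 of the other pathway genes had an unadjusted p under 0.05. Hey2 and Heyl were not run under that minimum of 5 FPKM or with quantile normalization. Depth limits Hey2, at 0 to 7.03 estimated reads.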
